A study of Mus musculus with 2 samples.

Results

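The globin genes of the mouse were followed in single cells of the newborn eye cup. The 7 genes were the rows of the deposited count matrices with the symbols Hba-a1, Hba-a2, Hba-x, Hbb-bs, Hbb-bt, Hbb-bh1 and Hbb-y, out of 31053 genes listed. Both libraries came from postnatal day 0 and each held cells of 3 pooled eye cups, from which cornea, lens and optic nerve had been dissected away. The control carried Myrf fl/fl, that is, both copies of Myelin regulatory factor flanked by loxP sites. The mutant carried the same floxed alleles together with Rx>cre, which expresses the recombinase in the early eye field. Each genotype was 1 library, so no replicate spread exists and no test was made between them. All intervals below are exact 95% intervals of counting error (Poisson for levels, Clopper-Pearson for shares), and UMIs (unique molecular identifiers, each standing for a captured RNA molecule) were counted as deposited.

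Haemoglobin joins alpha-type and beta-type globin chains around haem and carries oxygen in red blood cells. In the mouse, the first red cells of the yolk sac use the embryonic genes Hba-x (zeta), Hbb-bh1 and Hbb-y (epsilon y), and the later cells of fetal liver and marrow use the adult genes Hba-a1 and Hba-a2 (alpha) with Hbb-bs and Hbb-bt (beta). This change is called the globin switch. Red cells lose their nucleus and most other RNA as they mature, and globin RNA leaking from broken cells is a common part of the free RNA that droplets take up alongside any cell.

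The 2 families lie in separate clusters. By GENCODE vM21 (build GRCm38, the mm10 genome of the files), Hba-x is at chr11:32276400-32278116, Hba-a1 at chr11:32283511-32284465 and Hba-a2 at chr11:32296489-32297298, all on the plus strand. The beta-type genes lie on the minus strand, with Hbb-bt at chr7:103812524-103813996, Hbb-bs at chr7:103826534-103828096, Hbb-bh1 at chr7:103841637-103843164 and Hbb-y at chr7:103851749-103853216. The RefSeq promoter table (GRCm38.p6) held 6 of the 7 genes, all except Hbb-bh1. The 120 bases before the RefSeq start are shown for 3 adult and 2 embryonic genes, because the first were abundant at birth and the others were at or near 0. Capitals mark letters on either strand that match CACCC (the box bound by Krüppel-like factors), the CCAAT box, the GATAA core bound by GATA factors or the ATATAA form of the TATA box, where marks may overlap.
Hba-a1: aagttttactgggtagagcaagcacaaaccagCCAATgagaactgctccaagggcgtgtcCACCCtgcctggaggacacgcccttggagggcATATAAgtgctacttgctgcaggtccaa
Hba-x: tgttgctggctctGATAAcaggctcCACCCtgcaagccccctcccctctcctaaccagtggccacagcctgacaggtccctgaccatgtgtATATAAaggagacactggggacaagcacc
Hbb-bs: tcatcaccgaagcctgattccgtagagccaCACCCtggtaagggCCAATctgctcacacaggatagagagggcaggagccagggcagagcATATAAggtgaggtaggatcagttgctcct
Hbb-bt: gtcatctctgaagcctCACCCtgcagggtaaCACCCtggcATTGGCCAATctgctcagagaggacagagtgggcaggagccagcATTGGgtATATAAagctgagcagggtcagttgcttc
Hbb-y: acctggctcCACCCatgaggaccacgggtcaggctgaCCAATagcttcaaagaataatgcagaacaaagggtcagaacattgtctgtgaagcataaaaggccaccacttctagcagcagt

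These windows are chr11:32283552-32283671 for Hba-a1, chr11:32276480-32276599 for Hba-x, chr7:103827929-103828048 for Hbb-bs, chr7:103813924-103814043 for Hbb-bt and chr7:103853208-103853327 for Hbb-y. GENCODE begins several of these genes further upstream, and 120 bases of the Hba-a1, Hba-x and Hbb-bs windows fall inside its gene models. CACCC was present in all 6 promoters of the table, against 31.3% of 27025 mouse promoters of the same length. CCAAT was present in all but Hba-x (22.1% of promoters), ATATAA in all but Hbb-y (4.68%), and GATAA in Hba-x alone (10.7%). The window of Hbb-bt held 2 CACCC and 3 CCAAT matches, and that of Hbb-bs held 1 of each. Hba-a1 and Hba-a2 were identical at 95.1% of aligned promoter positions, Hbb-bs and Hbb-bt at 75%, and Hbb-bs and Hbb-y at 54.0%. These matches describe letters in a window and were not tested for function.

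The libraries held 14305 control and 12222 mutant barcodes with 79017429 and 76272867 UMIs, at medians of 4201 and 4952 UMIs per barcode. After quality limits and removal of called doublets, 12485 control and 10813 mutant cells were kept. Only 59 barcode sequences occurred in both libraries, and none was a red cell. In pigment-epithelium-like cells Myrf stood at 227 CPM (counts-per-million) in the control library and at 26.7 CPM in the mutant library. In the red cells described below it had 0 UMIs in either. The positions of its tags relative to the floxed part were not checked.

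Globin supplied 991084 UMIs (1.25% of all) in the control and 952289 (1.25%) in the mutant. Red-cell-like cells were taken from a cluster found without any globin gene. This cluster, called red cells from here on, held 60 control and 47 mutant cells, 0.481% (0.367 to 0.618) and 0.435% (0.320 to 0.578) of kept cells. It met the marker rule with only 4 of the 13 listed markers that were in the files. Alas2, the first enzyme of haem synthesis in red cells, reached 17660 and 18750 non-globin CPM (scaled to the UMIs outside the globin family), against 2.66 and 3.57 in all other cells. Slc4a1, the band 3 anion exchanger of the red cell membrane, had 27 UMIs in control red cells and 22 in mutant ones. In these cells Rhag was at 0 in both libraries, and Klf1 and Gata1, transcription factors of red cell precursors, had at most 1 UMI in each.

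Red cells consisted mostly of globin RNA. Globin made up a median of 94.2% of a control red cell's UMIs, from 66.8% to 97.2%, and 95.0% of a mutant one's, from 72.1% to 97.0%. The median cell held 12256 globin UMIs in the control (639 to 21694) and 12972 in the mutant (3570 to 22807), so the libraries overlapped widely. Beside globin, it held only 678.5 and 692 other UMIs and 294 and 299 detected genes. These cells carried 69.9% of the control's globin UMIs and 63.7% of the mutant's. Of markers of other cell types, the mesenchyme list stood at 6087 non-globin CPM in control red cells and 990.4 in mutant ones, against 16240 and 11600 in the other cells. The retinal progenitor list had 2484 and 2206, against 3791 and 4485 outside. The lens list stood at 541.5 in control red cells and 242.9 outside, with 0 and 6.78 in the mutant, and the muscle list at 448.2 and 121.2, with 135 and 124.3 in the mutant. The remaining lists were lower in red cells than outside in both libraries. The 8 neutrophil markers were all at 0. The part of such foreign RNA in the values below was not tested.

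**Figure D1:**
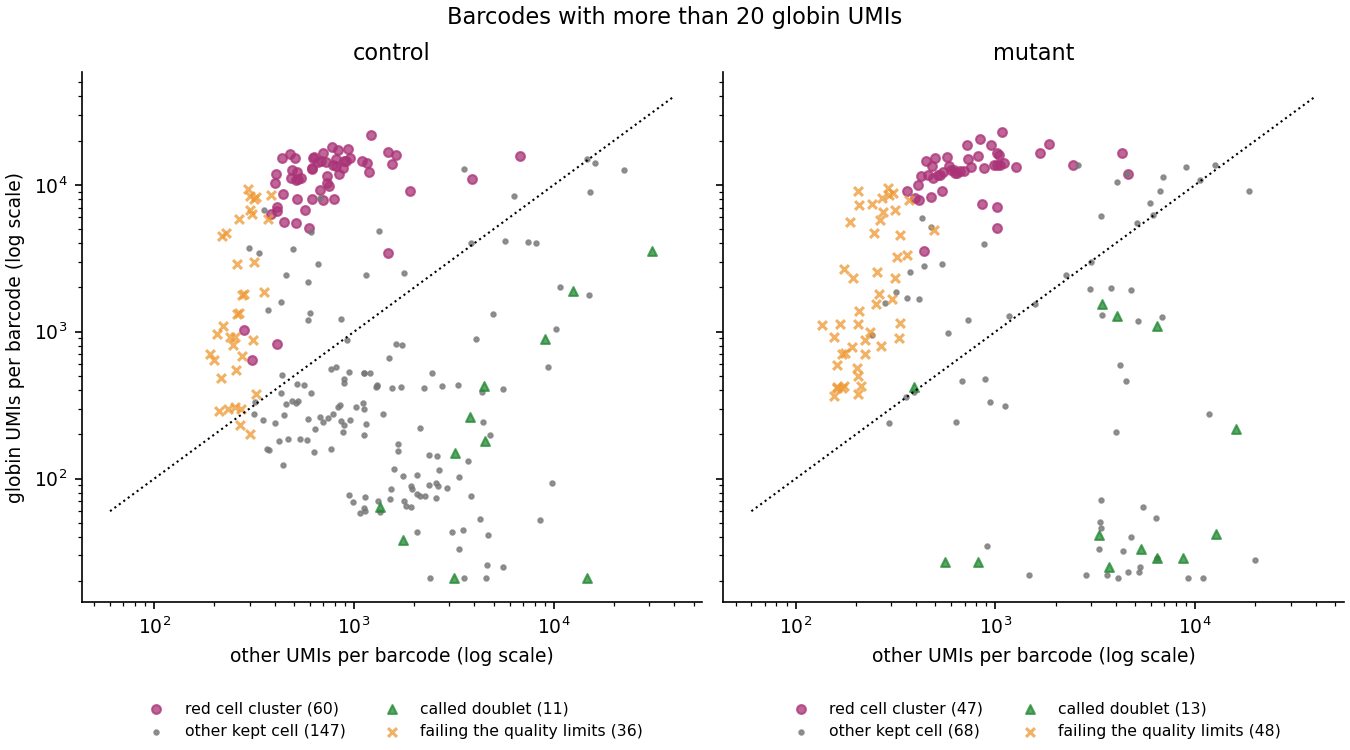
Each point is a barcode with more than 20 globin UMIs, placed by its other UMIs (x, log scale) and its globin UMIs (y, log scale), with symbols for the red cell cluster, other kept cells, called doublets and barcodes failing the quality limits. Red cells lie in the upper left, above the dotted line where globin makes up 50% of UMIs, and a trail of barcodes with under 200 genes runs down from them in both libraries.

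At birth the globin RNA of the red cells was adult, and embryonic globin was at or near 0. Control red cells held 0 UMIs of Hba-x, Hbb-bh1 and Hbb-y among 692768 globin UMIs, for which the exact interval of the embryonic share reaches up to 0.000532%. The simpler limit of 3 UMIs of the total is 0.000433%. Mutant red cells held 1 UMI of Hbb-y and 0 of Hba-x and Hbb-bh1 among 606600, a share of 0.000165% (4.17e-06 to 0.000918). Over all barcodes of both libraries, including those that failed the limits, this was the only embryonic globin UMI. Hba-x and Hbb-bh1 were at 0 in every barcode, and Hbb-y was at 0 in every control barcode.

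Among the adult genes, Hbb-bs was the most abundant RNA of the red cells. It had 526200 CPM (524500 to 527800) in the control and 521000 (519300 to 522800) in the mutant, so that it alone made up 52.6% and 52.1% of all red cell UMIs. Hba-a1 followed with 163100 CPM (162200 to 164000) and 156900 (155900 to 157900). Hbb-bt stood at 128500 CPM (127700 to 129300) in the control and 146100 (145100 to 147000) in the mutant. Hba-a2 was the lowest of these, at 110400 CPM (109700 to 111200) and 107700 (106900 to 108500). In this cluster the order was the same in both libraries, and tags counted at the 3′ end need no scaling by length. It depends on how red cells are chosen, since with the gate on erythroid markers described below Hbb-bt lay above Hba-a1 in the mutant. Reads of the gene copies can be hard to tell apart. Of the 100-base windows in the last 300 bases of the Hba-a1 transcript, 50.3% also occur in Hba-a2, and of those of Hbb-bs, 20.9% occur in Hbb-bt, so the split within each pair is uncertain. No window of Hba-x occurred in Hba-a1, and none of Hbb-bh1 or Hbb-bs occurred in Hbb-y.

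Between cells the levels spread far more than between libraries. Hbb-bs ranged from 289 to 10777 UMIs per control cell (6545 ± 2310, mean ± SD over cells) and from 2545 to 12931 per mutant cell (7217 ± 1896). Hba-a1 ranged from 138 to 3934 UMIs (2029 ± 786.6) and from 492 to 3661 (2173 ± 663.5). Hba-a2 gave 1374 ± 536.3 and 1492 ± 501.7 UMIs. Hbb-bt had the widest relative spread, from 30 to 4294 UMIs per control cell (1599 ± 1054) and from 97 to 4110 per mutant cell (2023 ± 1027).

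The mutant library differed little from the control in the level of any adult globin gene in red cells. The log2 ratio of mutant to control CPM, with 1 CPM added, was -0.06 for Hba-a1 (-0.07 to -0.04), -0.04 for Hba-a2 (-0.05 to -0.02), -0.01 for Hbb-bs (-0.02 to -0.01) and 0.18 for Hbb-bt (0.17 to 0.20). None of the 4 reached a log2 ratio of 1 in size, whereas 43 of 512 genes with at least 20 UMIs in red cells did (8.40%), with a median of 0.03 over all of them. When red cells were instead gated by at least 3 UMIs from at least 2 erythroid markers, the ratio of Hbb-bt turned to -0.11, and those of Hba-a1, Hba-a2 and Hbb-bs moved to -0.26, -0.25 and -0.13. This gate found 31 control and 34 mutant cells, 50 of them also in the cluster. The intervals cover counting error only and say nothing of differences between litters or dissections.

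The alpha-type share of globin UMIs was 29.5% (29.4 to 29.6) in control red cells and 28.4% (28.3 to 28.5) in mutant ones, or 0.418 and 0.397 alpha UMIs for each beta UMI. Within the alpha genes, Hba-a1 gave 59.6% (59.4 to 59.8) and 59.3% (59.1 to 59.5). Within the adult beta genes, Hbb-bt gave 19.6% (19.5 to 19.7) and 21.9% (21.8 to 22.0). From cell to cell, the Hba-a1 share kept within 53.9% to 65.6% in the control and 54.0% to 64.7% in the mutant. The alpha-type share ranged more widely, from 20.4% to 57.8% in control red cells (median 30.04%) and from 22.9% to 35.05% in mutant ones (median 27.8%).

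**Figure D2:**
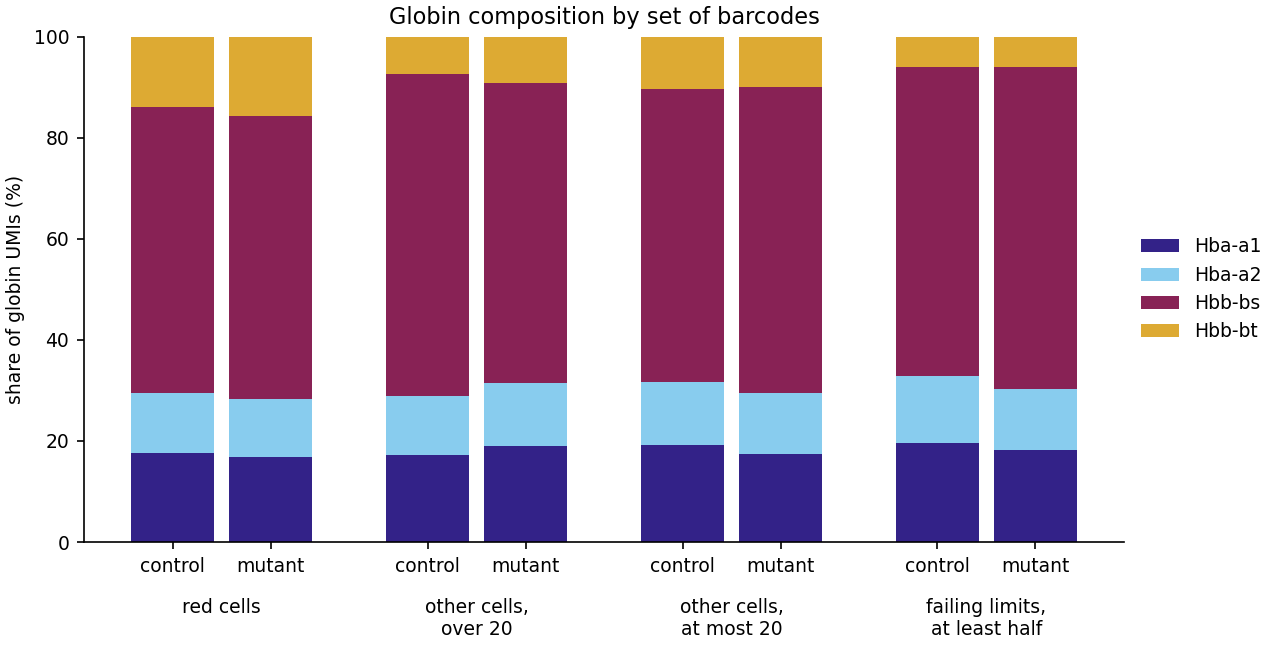
Stacked bars give the share of globin UMIs (%) from each adult gene, for the red cell cluster, for other kept cells with more than 20 and with at most 20 globin UMIs, and for barcodes that failed the quality limits but had at least 50% globin. Hba-a1 and Hba-a2 keep similar shares in all 8 bars, while the share of Hbb-bt at the top is largest in red cells and smallest in the failing barcodes.

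The Hbb-bt share differed widely between red cells. The lowest control red cell had 30 Hbb-bt UMIs beside 5026 of Hbb-bs, a share of 0.593% (0.401 to 0.846), and the highest had 3773 beside 8639, a share of 30.4% (29.6 to 31.2). In the mutant the extremes were 97 beside 6106 UMIs, or 1.56% (1.27 to 1.90), and 3637 beside 8740, or 29.4% (28.6 to 30.2). These intervals are far apart, so the spread exceeded the counting error of a cell. The median share was 19.7% in the control (quartiles 13.3% and 23.2%) and 22.5% in the mutant (16.3% and 26.1%), and the libraries overlapped over almost the whole range.

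The Hbb-bt share went along with the amount of globin in the barcode. To see the low end, all deposited barcodes with at least 50% globin and at least 500 globin UMIs were taken, which gave 110 control and 115 mutant barcodes. This set was chosen after seeing the data, by total globin and not by the split between Hbb-bs and Hbb-bt. In the control the pooled share was 5.48% (5.15 to 5.82) in 24 barcodes with 500 to 2000 globin UMIs, 3.73% (3.54 to 3.93) in 16 with 2000 to 5000, 10.4% (10.2 to 10.5) in 27 with 5000 to 10000, 19.2% (19.0 to 19.3) in 28 with 10000 to 15000 and 24.9% (24.7 to 25.1) in 15 above that. In the mutant the same bins gave 5.68% (5.36 to 6.01) in 28 barcodes, 3.96% (3.75 to 4.17) in 15, 11.8% (11.6 to 12.0) in 28, 20.9% (20.7 to 21.0) in 32 and 25.6% (25.4 to 25.9) in 12. Both libraries therefore showed the same course, low below 5000 globin UMIs and higher in each bin above. In the lowest bin the median barcode had 2.14% in the control and 3.07% in the mutant, below the pooled shares, and the highest barcodes had 26.1% and 30.9%. Bins with under 20 barcodes are thinly filled, and the order held without them, at 5.48%, 10.4% and 19.2% in the control and 5.68%, 11.8% and 20.9% in the mutant.

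Across these barcodes, the Hbb-bt share and globin UMIs had a Pearson correlation of 0.75 over 110 control barcodes and 0.76 over 115 mutant ones (0.72 and 0.75 on ranks). Total globin contains Hbb-bt itself, but alpha UMIs do not, and with these the correlation was 0.71 and 0.69. With Alas2 UMIs it was 0.65 and 0.69, and with UMIs outside the globin family 0.22 and 0.23 (0.46 and 0.53 on ranks). Within the red cell cluster alone the correlation with globin UMIs was 0.55 in both libraries, over 60 and 47 cells, and with alpha UMIs it was 0.46 and 0.40. With Alas2 it was 0.36 and 0.54 there, and with the other UMIs 0.24 and 0.32. On ranks within the cluster, the correlation was 0.62 and 0.59 with globin, 0.47 and 0.33 with alpha and 0.46 and 0.63 with the other UMIs, so in the mutant it was no closer with globin than with the rest of the cell's RNA. The 3 control red cells with 500 to 2000 globin UMIs went against this course, with an Hbb-bt share of 20.5% (18.5 to 22.6), above the 10.5% of the 15 with 5000 to 10000. Barcodes of a library share its preparation and depth, so these are descriptions. The Hba-a1 share had a median between 58.4% and 60.8% in every bin of these barcodes. Its correlation with the Hbb-bt share was -0.07 and -0.21 over all of them, and -0.12 and -0.41 within the red cell cluster. The alpha-type share ran from 7.95% to 62.9% in the 110 control barcodes and from 1.89% to 75.4% in the 115 mutant ones, and its correlation with the Hbb-bt share was -0.04 and -0.13 (-0.21 and -0.28 within the cluster).

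**Figure D3:**
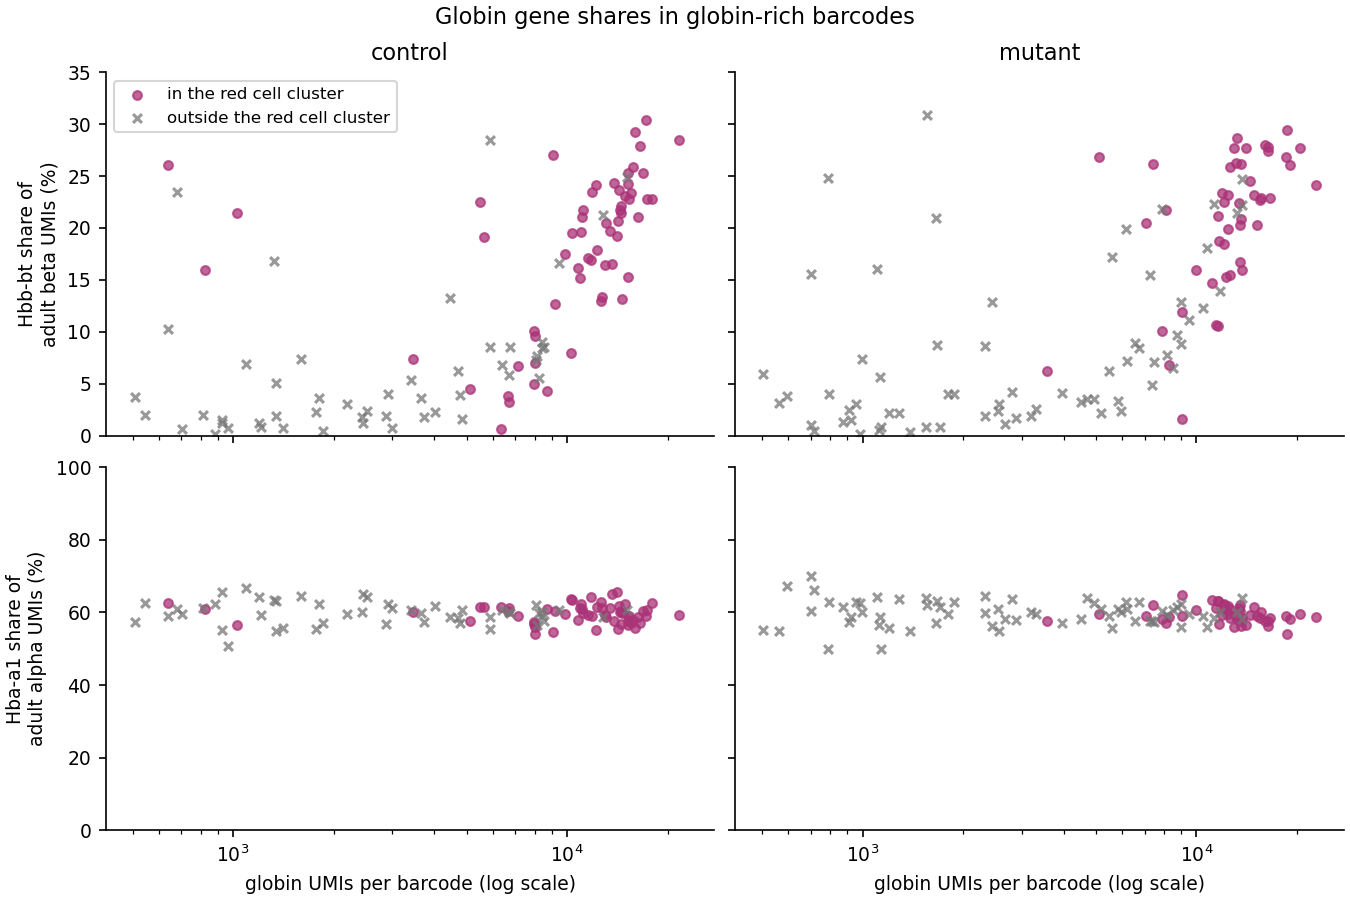
Each point is a barcode with at least 500 globin UMIs that is either in the red cell cluster (circles) or has at least 50% globin (crosses), plotted by globin UMIs (x, log scale) against the Hbb-bt share of adult beta UMIs (top, %) and the Hba-a1 share of adult alpha UMIs (bottom, %). The Hbb-bt share climbs above 5000 globin UMIs in both libraries, with a few exceptions at low globin, and the Hba-a1 share stays near 60%.

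Hbb-bt shares of single barcodes covered the whole range. In the control, 33 of the 110 barcodes had an Hbb-bt share under 5%, 20 had 5% to 10%, 7 had 10% to 15%, 17 had 15% to 20%, 23 had 20% to 25% and 10 had more. The mutant counts were 36, 16, 10, 14, 23 and 16 of 115. Barcodes outside the cluster made up 27 of the 33 under 5% in the control and 35 of the 36 in the mutant. Of all these barcodes, 50 of 110 and 68 of 115 lay outside the cluster. Many barcodes low in globin had too few genes for the quality limit. Whatever their Hbb-bt share, 15 of 24 control and 20 of 28 mutant barcodes with 500 to 2000 globin UMIs had under 200 genes. None above 10000 globin UMIs did. Pooled Hbb-bt shares were low under the gene minimum, at 8.94% (8.73 to 9.16) in the 34 failing control barcodes with at least 50% globin and 8.48% (8.31 to 8.66) in the 48 failing mutant ones. At the 50% limit itself, the nearest control barcodes had 48.7% and 50.8% globin and the nearest mutant ones 49.9% and 50.1%, and none of them belonged to the cluster.

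Genes that serve haemoglobin were compared between red cells and all other cells in non-globin CPM. Of all 508 genes with at least 20 UMIs in red cells, 135 (26.6%) were at least 2-fold higher there in both libraries, and the median log2 difference was -0.17 in the control and -0.12 in the mutant. Since a gene had to reach this number in red cells, one that is low in other cells could enter only by being higher in red cells, so the counts and medians of lists below are descriptions and support nothing. In the list of haem synthesis and iron, 5 of 14 genes had enough UMIs and all 5 were higher. Their median log2 difference was 6.93 and 6.84. Ftl1 and Fth1, the light and heavy chains of the iron store ferritin, stood at 30770 and 11540 non-globin CPM in control red cells and at 32860 and 13300 in mutant ones. Outside they were at 2308 and 1445 in the control and 2092 and 1273 in the mutant.

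Among the membrane and skeleton genes, 3 of 16 had enough UMIs and all 3 were higher in red cells. Epb41 (protein 4.1) and Slc4a1 were among them, with log2 differences of 4.42 and 8.86 in the control and 4.37 and 8.78 in the mutant. Of 13 genes of the red cell cytosol that were in the files, 11 had enough UMIs and all 11 were higher, with a median of 5.60 and 6.74. Mkrn1, a ubiquitin ligase, and Bpgm, which makes the bisphosphoglycerate that lowers oxygen affinity, were among the 3 genes of this list with the highest level in red cells. Bpgm had 14000 and 14790 non-globin CPM in red cells, against 43.3 and 49.7 outside. These lists contain genes used to name the cluster, so their higher level is no independent result.

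Genes of the other lists had few UMIs in red cells. None of the 14 erythroid transcription genes reached 20 UMIs in red cells, and 4 had 0, where only 508 of all 31053 genes reached this number outside the globin family. Lmo2, which bridges erythroid factors, had 10 control and 4 mutant UMIs, with log2 differences from the other cells of 2.87 and 2.14. Myb had 8 and 3 UMIs (0.18 and -1.36), and Foxo3 had 4 and 3 (0.25 and -0.01). These genes are below the minimum of 20 UMIs, and no direction is read from them. Of the 10 division genes, 1 had enough UMIs: Birc5, with 6 control and 16 mutant UMIs. Top2a had 16 and 3, and Mki67 had 5 and 9. At such counts the order of the libraries carries little. Of the other globin genes, Hbq1a and Hbq1b (theta globins beside the alpha cluster) had 7 and 6 UMIs in control red cells and 5 and 7 in mutant ones. Cygb (cytoglobin), which is not a red cell gene, had 1 and 0. Of the 8 genes listed for binding and clearing globin and its breakdown products, 7 had 0 UMIs in red cells. Blvra (biliverdin reductase A) and the scavenger receptor Cd163 were among them, and Lrp1 had 2 and 0. The share of all genes at 0 in red cells was not counted, so the counts of genes at 0 are descriptions only.

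The genes whose level most resembled that of summed globin were found over 40 pairs of cell class and library with at least 20 cells. Alas2 came first (Pearson correlation of log2 CPM 0.84), and those after it included Rec114 (0.65), Slc25a37, the mitochondrial iron importer (0.60), Bpgm (0.59), Isg20 (0.58), Fam46c (0.53), March2 (0.42), Fam220a (0.39) and Gm26870 (0.37). Without the pairs of red cells, over 38 pairs, Alas2 kept 0.74, while Bpgm had 0.23 and March2 -0.07. Gm26870 went the other way, to 0.59. The pairs share libraries and depth, and no p was computed.

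Outside red cells, globin RNA was everywhere but sparse. Of kept cells with at most 20 globin UMIs, 5705 of 12278 control and 4815 of 10698 mutant cells had none, and the mean was 0.842 UMIs per cell (0.825 to 0.858) and 0.996 (0.977 to 1.01). Another 147 control cells (1.18%) and 68 mutant cells (0.632%) had more than 20 and held 177699 and 184428 globin UMIs. They carried 17.9% and 19.4% of each library's globin, whereas all the ordinary cells together carried 1.04% and 1.12%.

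The globin level outside red cells rested on these few cells. With all kept cells it was 2760 CPM (2748 to 2773) in the control and 3059 (3045 to 3072) in the mutant, and without cells above 20 globin UMIs it was 153 (150 to 156) and 168 (165 to 171). With cells thinned to 1000 UMIs each, the order of the libraries was the other way, 2824 and 2479 CPM. Over all kept cells outside, the log2 ratio of mutant to control was 0.28 for Hba-a1, 0.23 for Hba-a2, 0.06 for Hbb-bs and 0.42 for Hbb-bt. Among cells with at most 20 globin UMIs it was 0.00 (-0.09 to 0.09), 0.10 (-0.01 to 0.22), 0.19 (0.14 to 0.25) and 0.08 (-0.04 to 0.21). None of the 4 genes reached 1 in size in all kept cells outside, where 119 of 17107 genes did (0.696%). If every kept cell with at least 50% globin was moved to the red cells, the ratios fell to -1.0, -1.11, -1.19 and -1.42. No direction between genotypes can be read from this level.

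In ordinary cells the number of globin UMIs changed little with the depth of the cell. In the control, cells with under 1000 other UMIs had a mean of 0.771 globin UMIs (0.712 to 0.834), and cells with 1000 to 2000 had 0.762 (0.713 to 0.814). Cells with 4000 to 8000 had 0.860 (0.834 to 0.888) and cells with over 16000 had 0.863 (0.781 to 0.95). The control bins under 2000 thus lay somewhat below the deeper ones. In the mutant the same bins gave 0.903 (0.797 to 1.02), 1.10 (0.994 to 1.21), 0.955 (0.929 to 0.982) and 1.05 (0.947 to 1.16). Since the number per cell stayed nearly level, the CPM fell with depth, from 1069 to 41.6 in the control and from 1289 to 48.7 in the mutant. The mutant mean lay above the control mean in each of the 6 bins, and the intervals overlapped in the lowest and the highest. Across cells the rank correlation of globin and other UMIs was 0.02 and -0.02. The variance of globin UMIs was 1.51 and 2.17 times the mean, so the Poisson intervals of these means are too narrow, more so in the mutant. Cells without globin made up 46.5% and 45.0%, against 43.1% and 37.0% for a Poisson distribution of the same mean.

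**Figure D4:**
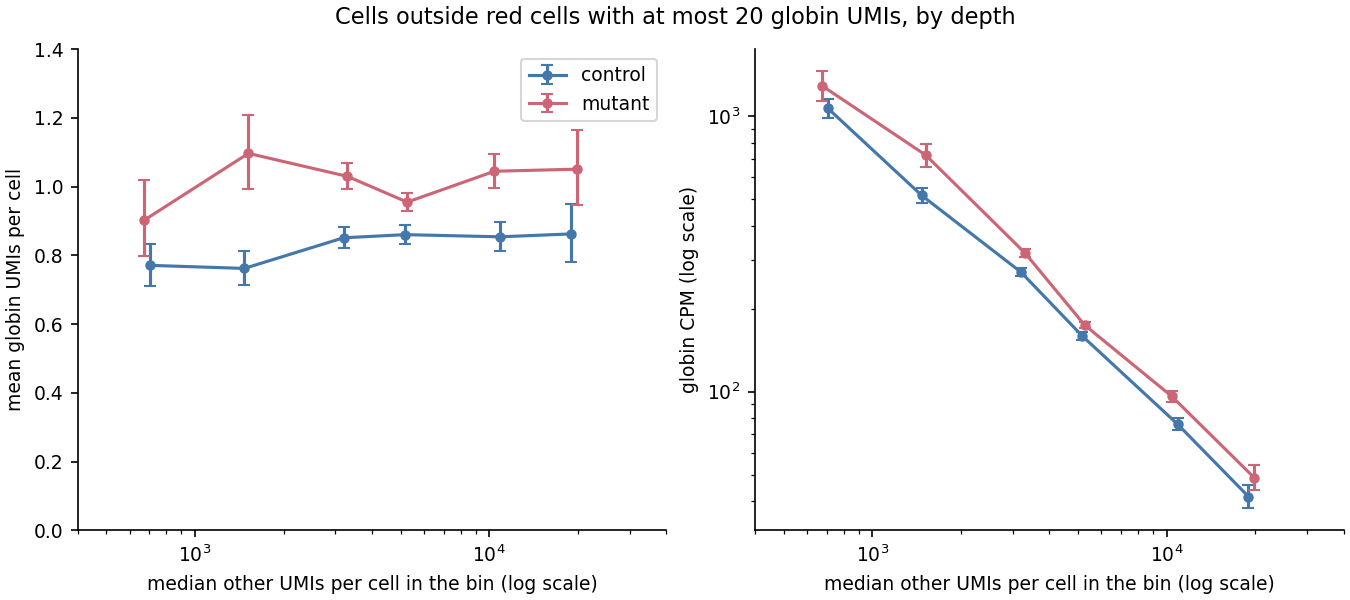
For kept cells outside red cells with at most 20 globin UMIs, the mean number of globin UMIs per cell (left) and globin CPM (right, log scale) are plotted against the median of other UMIs in 6 depth bins (log scale), with 95% Poisson intervals. The mean stays between 0.762 and 0.863 in the control and between 0.903 and 1.10 in the mutant, while CPM drops steadily.

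Between cell classes the mean number of globin UMIs spread less than CPM. Over 15 control classes of at least 20 cells named by their markers, the mean of ordinary cells ran only from 0.754 UMIs in surface-epithelium-like cells (0.614 to 0.916) to 1.12 in muscle-like cells (0.937 to 1.34). Over 13 mutant classes it ran from 0.80 in Schwann-glia-like cells (0.457 to 1.30) to 1.34 in astrocyte-like cells (0.972 to 1.81). Retinal-progenitor-like cells, the most numerous class, had 0.846 (0.814 to 0.879) and 0.979 (0.947 to 1.01). Endothelial-like cells, which line blood vessels, had 0.767 (0.685 to 0.855) and 0.976 (0.831 to 1.14), and macrophage-like cells, which take up red cell debris in many tissues, had 0.879 (0.769 to 0.999) and 1.09 (0.854 to 1.37). Neither stood above the progenitors beyond counting error. Mesenchyme-like cells did in the mutant, at 1.125 (1.052 to 1.202), but not in the control, at 0.865 (0.822 to 0.908). Muscle-like cells did in the control. These means leave out cells with more than 20 globin UMIs, so they cannot show an excess carried by a few high cells. Endothelial-like cells left out were 2 in the control (up to 12682 globin UMIs) and 1 in the mutant (1546). Macrophage-like ones were 0 and 1 (275). Over the classes, the mean had a rank correlation with class depth of 0.19 in the control and 0.48 in the mutant. In CPM the classes spread widely, from 55.1 in melanocyte-like cells to 774 in lens-like cells in the control, and CPM had a rank correlation of -0.74 with class depth (-0.95 in the mutant). The lens-like class had 69 control cells and none in the mutant.

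Of kept cells outside red cells, 54.1% (53.2 to 55.0) in the control and 55.3% (54.3 to 56.2) in the mutant had a globin UMI. After thinning every cell to 1000 UMIs, which left out 844 and 294 shallower cells, 19.0% (18.2 to 19.7) and 18.5% (17.7 to 19.2) did. By class, the thinned share in the control ranged from 3.23% in astrocyte-like cells (0.0816 to 16.7) to 41.9% in lens-like cells (24.55 to 60.9). Each of these 2 values rests on 31 cells, and 38 of the 69 lens-like cells were left out as too shallow. In the mutant it ranged from 11.0% in mesenchyme-like cells (8.89 to 13.4) to 21.9% in photoreceptor-like cells (19.6 to 24.2). Thinned shares had a rank correlation of -0.77 with class depth in both libraries, and unthinned ones -0.04 in the control and 0.61 in the mutant. These shares are not read as expression in these cells.

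**Figure D5:**
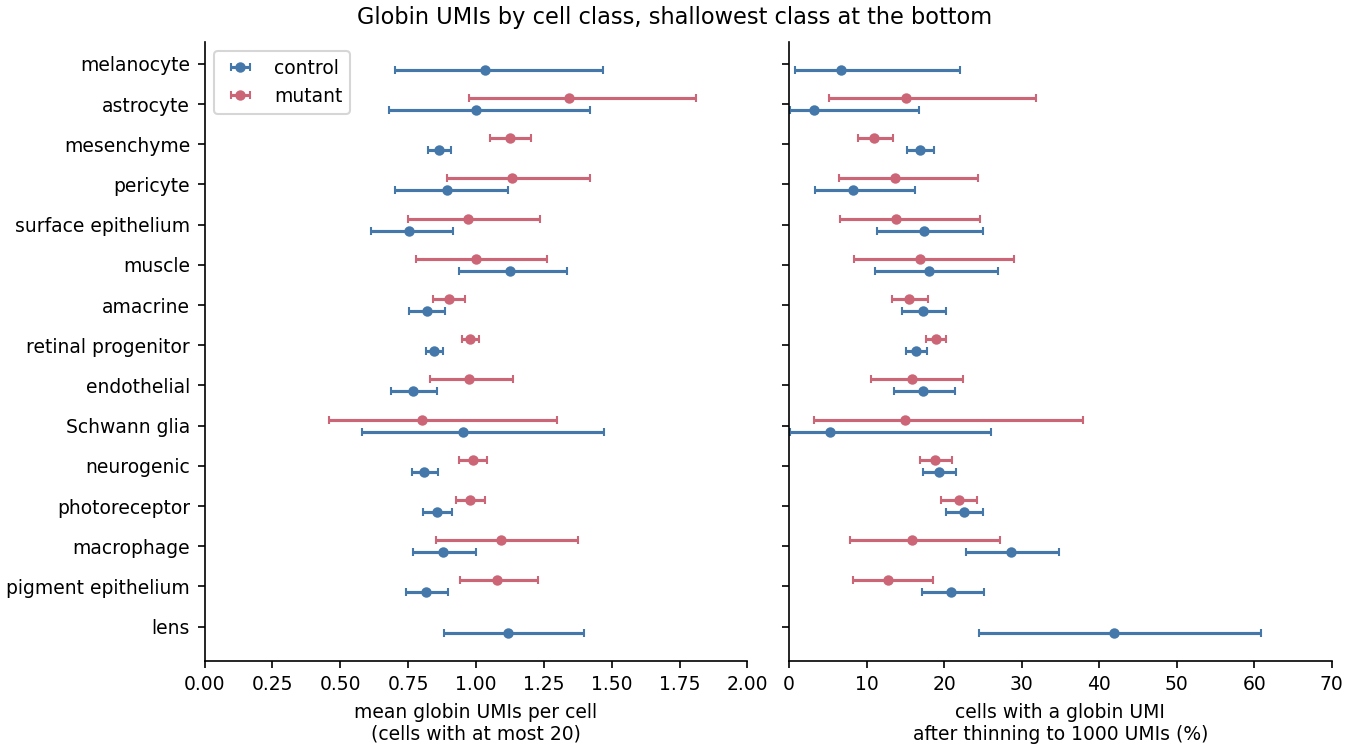
For each named class with at least 20 cells, the left panel gives the mean globin UMIs of cells with at most 20 and the right panel the share of cells (%) with a globin UMI after thinning to 1000 UMIs, with 95% counting intervals (classes ordered by control depth). Means cluster around 1 UMI per cell in every class, while thinned shares are highest in the shallow lens-like class.

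In cells with at most 20 globin UMIs the proportions of the globin genes were near but not equal to those in red cells. Globin in these cells is called free globin here, but its source was not tested. In these cells the alpha share was 31.6% (30.7 to 32.5) in the control and 29.6% (28.7 to 30.4) in the mutant. Both lay above the red cell values of 29.5% and 28.4% by more than counting error. The Hba-a1 share was 60.9% (59.2 to 62.6) and 59.2% (57.5 to 60.9). The Hbb-bt share was 15.1% (14.3 to 15.9) and 14.1% (13.3 to 14.9), below the red cell values of 19.6% and 21.9% by more than counting error. Over all barcodes with at least 50% globin it was 17.4% and 18.5%, which lies between these. Embryonic globins had 0 UMIs here, with exact intervals up to 0.0357% of control and 0.0346% of mutant free globin (0.0290% and 0.0282% by the limit of 3 UMIs). By class, the Hbb-bt share of free globin was 15.2% (13.6 to 16.95) and 14.2% (12.9 to 15.6) in retinal-progenitor-like cells. It was 13.9% and 14.3% in photoreceptor-like, 14.1% and 13.5% in mesenchyme-like and 12.3% and 11.7% in amacrine-like cells. Pigment-epithelium-like cells were higher, at 17.9% (13.7 to 22.8) and 17.95% (12.3 to 24.9), within counting error of the progenitors. An unnamed shallow cluster had 19.1% (15.4 to 23.2) and 22.3% (16.9 to 28.5), the latter above the mutant progenitors beyond counting error.

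The cells with more than 20 globin UMIs were not spread evenly. In the control, 51 of 1881 mesenchyme-like cells (2.71%, 2.03 to 3.55) and 64 of 855 cells of the same unnamed cluster (7.49%, 5.81 to 9.46) were among them, against 32 of 9689 in all other classes (0.330%, 0.226 to 0.466). In the mutant, 2 of 787 mesenchyme-like cells (0.254%, 0.0308 to 0.915), 21 of 305 of the unnamed cluster (6.89%, 4.31 to 10.3) and 45 of 9674 others (0.465%, 0.340 to 0.622) were. The mesenchyme-like class differed in make-up between the libraries. A shallow cluster within it, with a median of 1788 UMIs, held 601 of the control cells and 19 of the mutant ones, so these shares do not compare like cells. The control mesenchyme-like cells concerned had a median of 86 globin UMIs and 2074 other UMIs, against 8951 in their whole class, and those of the unnamed cluster had 334.5 and 648.5. The Hbb-bt share was 12.1% (11.6 to 12.5) in the former and 4.77% (4.58 to 4.97) in the latter, and 4.24% (3.99 to 4.50) in the mutant cells of the unnamed cluster. The mesenchyme-like value rests on few cells, since 5 of the 51 had more than 1000 globin UMIs and the highest alone had 14076.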

How the data were processed

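Single-cell RNA libraries (10x 3′ chemistry) of the 2 genotypes were analysed. Raw UMI counts per gene and barcode are as deposited. The authors made them with Cell Ranger 7.1.0 on mm10 and used Seurat 4.1.1 (submitters' processing notes), while the matrix headers give software version 3.1.0. The handling of reads shared by gene copies was not given in the sources used here. The barcodes number 14305 and 12222, equal to the cell numbers stated for these libraries. Barcodes with at least 200 genes and at most 15% mitochondrial UMIs were kept, as in the study. Its doublet limit of 2000 UMIs would leave 3 control and 0 mutant red cells, so doublets were called with Scrublet (scanpy 1.11.5) at an expected 0.8% per 1000 barcodes instead. Scores were cut at the expected rate (1646 and 1214 cells removed), since the tool's own thresholds marked 0% and 5.46%.

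Libraries were integrated in Seurat 5.3.0 (R 4.3.3; 2000 variable genes, 30 components, resolution 1) with 10 globin family genes removed beforehand, giving 36 clusters. Clusters were named by markers, with limits set after seeing the clusters. CPM (counts-per-million) refer to all UMIs of a set of cells, and 1 CPM was added before log2. Interval and thinning functions were tested on simulated data. Python 3.11.15, numpy 2.4.6, scipy 1.17.1 and pandas 2.3.3 were used. Named genes were the 7 members, the 3 highest genes of each list in red cells and the 10 genes most like summed globin; some of these are not reported here. Members and lists were chosen with earlier results of these data known. Several gates, filters and thinning were tried as alternatives.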

Additional observations from a re-analysis of the deposited data

Results flagged for a closer look

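Globin signal lay in barcodes outside the kept cells, on which the red cell levels rest. The Hbb-bt shares by amount of globin and the settings on all deposited barcodes included them. Of the 174 control barcodes that failed the quality limits, 34 had at least 50% of their UMIs from globin, and of the 195 mutant ones, 48 did. All of them failed by having under 200 genes and none by mitochondrial RNA. They held a median of 1336 and 1470 globin UMIs and 173.5 and 150.5 genes, and together 100901 and 144419 globin UMIs. There were thus 34 such barcodes beside 60 red cells in the control and 48 beside 47 in the mutant, a difference between the libraries that was not tested.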

How the results depend on the processing

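Of the shares and levels recomputed, 49 stayed within the counting interval of the value reported and 53 left it. The cause of each shift was not tested. Keeping called doublets or using resolution 0.5 gave the same 107 red cells. Values below are control then mutant. The globin level outside red cells was 2524 and 2672 CPM with doublets kept, 3218 and 3500 with at most 5% mitochondrial UMIs, 10130 and 10320 with at most 2000 UMIs per cell, 7515 and 6387 with the marker gate, 7948 and 7289 with the gate on all deposited barcodes, 1359 and 606.3 with red cells set by 50% globin, 1305 and 588.8 with that rule on all barcodes, 152.9 and 168.2 in cells with at most 20 globin UMIs, 2824 and 2479 after thinning, and 2024 and 2264 without unnamed clusters. The last setting and 50% globin on all barcodes were chosen after seeing the data.

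With at most 5% mitochondrial UMIs the red cell share in the control was 0.647%. With at most 2000 UMIs it was 0.144% and 0%, the 3 control red cells left gave an alpha share of 37.3%, an Hbb-bt share of 20.5% and an Hba-a1 share of 59.1%, and no mutant share could be computed. With the marker gate the red cell share was 0.248% and 0.314%, the alpha share 28.4% and 26.6%, the Hbb-bt share 23.5% and 23.7%, and the control Hba-a1 share 59.35%. The gate on all barcodes gave 0.217% and 0.286%, 28.4% and 26.95%, 23.5% and 23.5%, and 59.35%. With 50% globin these shares were 0.665% and 0.694%, 29.3% and 28.96%, and 18.45% and 20.4%. On all barcodes they were 0.818% and 1.015%, 29.7% and 29.2%, and 17.4% and 18.5%. The embryonic share in the mutant became 0% after thinning.

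The log2 ratio of Hbb-bt in red cells turned to -0.11 with the gate and -0.12 with the gate on all barcodes. Outside red cells, the ratio of Hbb-bs was -0.11 with at most 2000 UMIs. With the gate Hba-a1, Hba-a2, Hbb-bs and Hbb-bt were -0.17, -0.17, -0.31 and -0.02, and with the gate on all barcodes the first of these were -0.11, -0.11 and -0.15. With 50% globin they were -1.0, -1.11, -1.19 and -1.42, and on all barcodes -1.08, -1.17, -1.13 and -1.39. No paired analysis was possible because each genotype was 1 library and no test was made.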

Other observations

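Called doublets also carried globin. The 1646 control doublets held 8829 globin UMIs with an Hbb-bt share of 4.93% (4.40 to 5.50) and an alpha share of 30.1% (29.1 to 31.1). The 1214 mutant doublets held 6026, with an Hbb-bt share of 4.69% (4.12 to 5.31) and an alpha share of 17.2% (16.2 to 18.1). Only 11 and 13 of them had more than 20 globin UMIs, at most 3537 and 1548, so these shares rest on few barcodes.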
